A study of Mus musculus with 10 samples.

Results

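The mRNAs examined here carried short listed open reading frames (ORFs) with ribosome footprints in murine embryonic stem (ES) cells of the CGR8 line. Members were coding transcripts with 1 listed ORF of under 300 nt, a mean of at least 20 normalised control footprints on that ORF, and a gene symbol outside the families of ribosomal, respiratory chain, mitochondrial import, histone, spliceosomal, proteasome and selenoprotein genes. There were 235 members from 233 genes among 15269 listed transcripts, of which 14300 were coding with 1 ORF and 11443 of these passed the control floor. Another 45 short ORFs passed the length limit and the floor but were left out by symbol.

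Ribosome profiling, the sequencing of the RNA fragments that ribosomes protect from RNase, was done in 4 groups with 2 libraries each, and 2 transcriptome libraries held total RNA. All groups were feeder-free CGR8 cells of mouse strain 129 kept in leukemia inhibitory factor, and all received the same amount of the solvent DMSO. The treated groups received DMDA-PatA at 1 µM for 10 min, harringtonine at 2 µg/ml for 10 min or puromycin at 0.2 mg/ml for 20 min, and the control group received no inhibitor. The study's methods call the 2 libraries of a group biological replicates, while the labels only number them and name no separate cultures. CGR8 is 1 cell line, so the values describe that line. All 8 stem cell markers examined were detected in both transcriptome libraries, with Pou5f1 at 9296 and 7696 normalised reads. All 7 markers of other cell types were above 0 as well, from Sox17 at 3.08 and 8.44 normalised reads to Col1a1, a fibroblast collagen, at 132308 and 136627, and their part in the results was not tested. Reads on coding ORFs numbered 9022894 and 10522777 in the control libraries and between 608623 and 1902839 in the drug libraries.

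Small proteins are read by few ribosomes at a time, because a short ORF has room for few. Many act as subunits or adaptors: metallothioneins bind metals, thymosin beta binds actin monomers, and small subunits complete larger enzymes of the mitochondrion, the secretory membrane or the ubiquitin system. The inhibitors act at different steps. DMDA-PatA, an analog of the marine natural product pateamine A, targets the RNA helicase that unwinds mRNA 5′ ends before the ribosome reaches the start codon. Harringtonine holds ribosomes that have just begun at the start codon while those further along finish. Puromycin mimics a charged tRNA and releases the growing chain.

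The label of a small protein held for less than the whole set. For 114 members (48.5%) the ORF was complete and no coding sequence of the gene in the GENCODE M21 annotation reached 300 nt. These are called small protein genes below. For 91 members (38.7%) the ORF was complete but the gene has a longer annotated coding sequence, so the listed ORF is a short isoform. Rbm39, a splicing regulator named after its values were seen, is one: its listed ORF has 114 nt and its longest annotated coding sequence 1590 nt. Some of this class lie just over the limit, as Cops9 and Lsm8 do with a longest coding sequence of 300 nt each. Another 22 members are annotated without a 3′ end, and 8 could not be matched to the annotation. Functions given below are those of the gene. The listed ORF of a short isoform, incomplete or unmatched member may not encode that protein.

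The ends of the listed ORFs are shown because they separate complete from incomplete members. Each line gives the last 24 bases and the next 3 bases in capitals, 5′ to 3′, from the GENCODE M21 transcripts. In the complete ORFs of Tmsb4x and Ost4 the capitals are an in-frame stop codon. In the incomplete members Gnl2, Abcf1 and Prr3 the capitals spell a stop triplet that is not in the reading frame, and the transcript ends there.
Tmsb4x: caagagaagcaagctggcgaatcgTAA
Ost4: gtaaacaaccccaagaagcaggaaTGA
Gnl2: acaaaaatttcaagaggaaatggaTAA
Abcf1: tgaagccctgattcaggatgacagTGA
Prr3: ggggacggatgattcccccactgcTGA
Of the 22 incomplete members, 21 ended in such out-of-frame stop letters, none held an in-frame stop, and in all 22 the transcript ended with the coding sequence. Their genes have longer annotated coding sequences, as the nucleolar GTPase Gnl2 does with 2184 nt.

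The start codon surroundings of members that differed in their response are shown next, with 12 bases before the start codon and the start codon in capitals.
Tmsb4x: cttccagcaaccATGtctgacaaacccgat
Apln: ccgagttgcagcATGaatctgaggctctgc
Cdc42se2: cggactgagagcATGagtgaattctggttg
Dynll2: tgacgtgtcacgATGtctgaccggaaggca
Triap1: gccatcaccgccATGaacagcgtcggggag
Prorsd1: gtagaggggaaaATGgcaggctcggagctg
A purine 3 bases before the start codon, the strongest single feature of the consensus for initiation, was present in 179 of 205 members with an assigned start codon (87.3%) and in 86.7% of 10677 ORFs of 300 nt or more. A G directly after the start codon was present in 89 of 205 members (43.4%) and in 53.6% of the longer ORFs.

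Control levels chose the members and are given as a description. The median member had 135 normalised control footprints, and the members ranged from 20.0 to 23356. Only 16 members reached a mean of 1000. Nearest to the length limit inside the set were Gnl2 (299 nt) and Dpy30 (297 nt), and outside it Znrd1 and Rbm18 (300 nt each). Nearest to the control floor were Crem (20.0) and Srpk1 (20.3) inside and Bicdl1 (19.8) and 1500009L16Rik (19.3) outside. Per 100 nt of ORF, the median member had 62.6 control footprints against 20.0 for the 11163 ORFs of 300 nt or more, while transcriptome reads per 100 nt, which were normalised apart from the footprints, were 73.6 and 61.9. Translation efficiency (TE), the control footprints over transcriptome reads with both scaled to the same total on coding ORFs, had a median of 1.96 over the members (2.09 and 2.04 by replicate number) and 0.932 over the longer ORFs. In bins of ORF length that start at 300, 600, 1000 and 2000 nt, the median TE was 1.61, 1.28, 0.937 and 0.615. The same floor of 20 control footprints per ORF asks for a higher density on a shorter ORF. Its part in these differences of density and TE was not tested. Of 234 members with transcriptome reads, 200 had a TE above 1. The remaining member, Usmg5, a small subunit of ATP synthase, had no transcriptome read on its ORF in either library.

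The 5 members with the highest control level carried much of the signal. Tmsb4x (chrX:167207093-167209315, mm10, minus strand) encodes thymosin beta 4, which sequesters actin monomers. Its ORF had 24447 and 22265 normalised footprints in the control libraries, 1925 and 3534 under DMDA-PatA, 30278 and 16310 under harringtonine, and 12581 and 11405 under puromycin. The DMDA-PatA libraries lay far below the controls, while the harringtonine libraries lay on either side of them. The log2 fold change was -3.10 ± 0.48 (SE) with DMDA-PatA, with an adjusted p of 1.02e-10 in the edgeR quasi-likelihood test. It was -0.00385 with harringtonine (adjusted p 0.993) and -0.96 ± 0.44 with puromycin (adjusted p 0.0339). Mt1, a metallothionein that binds zinc and copper, had 6182 and 6461 control footprints, 943 and 1276 under DMDA-PatA, 5735 and 2066 with harringtonine, and 6243 and 8530 with puromycin. Only the change with DMDA-PatA, -2.51 ± 0.46 on the log2 scale, passed the test (adjusted p 5.13e-08). The calcium-binding S100a6 fell from 5799 and 4836 to 174 and 244 with DMDA-PatA, a log2 fold change of -4.67 ± 0.50 (adjusted p 8.12e-20). Its relative S100a10 fell with each of the 3 drugs, by 3.39, 1.26 and 1.70 on the log2 scale. Banf1, which bridges DNA to the nuclear envelope, fell by 4.41, 2.09 and 1.49.

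**Figure D1:**
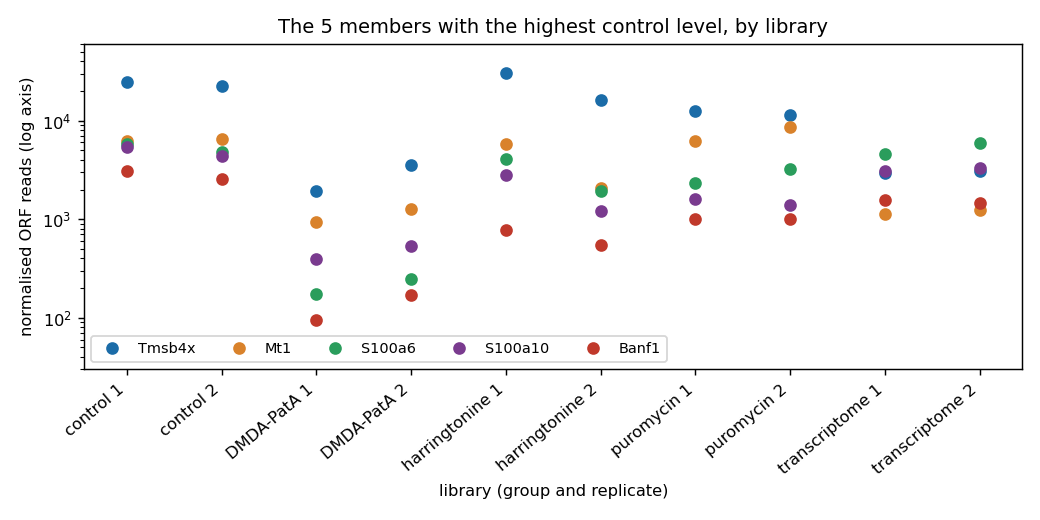
Normalised ORF reads (log axis) of the 5 members with the highest control level in each of the 10 libraries; each point is 1 library. Both DMDA-PatA libraries lie below both control libraries for every gene shown, while Mt1 with puromycin (6243 and 8530) overlaps its control (6182 and 6461).

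DMDA-PatA lowered nearly all members. In the quasi-likelihood test 233 of 235 fell and none rose at an adjusted p under 0.05. Of the 12499 transcripts tested 99.3% fell and 0.064% rose. Members were chosen by a control floor, and the same control libraries enter the tests against control. The 12499 transcripts had only to pass a filter on low reads. They were held neither to that floor nor to coding transcripts. For every drug, counts of members and shares of all transcripts are therefore not from like sets. The part of the floor in them was not tested. Both DMDA-PatA libraries lay below both control libraries for 233 members. In both same-numbered pairs DMDA-PatA was below control for 233 of 235 members and for 11159 of 11163 ORFs of 300 nt or more. The median fold inhibition, control over drug, was 12.2 (15.4 and 9.28 for the same-numbered pairs), against 20.9 for ORFs of 300 nt or more (28.0 and 16.8). It was 13.0 for small protein genes, 9.31 for short isoforms and 18.6 for incomplete members. With the libraries scaled by TMM, which sets the typical transcript to no change, 95 members were called higher and 23 lower, beside 18.9% and 23.8% of all transcripts. TMM moved the median log2 fold change of all transcripts from -4.32 to -0.12. On the deposited spike-in scale every direction below is a change per spike-in RNA, and for some genes the log2 fold change is also given relative to the median of all transcripts. The study's methods state that the spike-in RNA was added in proportion to total RNA, so this scale is per amount of isolated RNA. Footprints per cell were not measured. The 5′ UTR reads of the same transcripts are given below.

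The lowest fitted log2 fold changes were those of Apln, Asb7, Enho, Cdc42se2 and Dynll2, of which Apln, Asb7 and Enho had at most 1 DMDA-PatA read. Apln (chrX:48025146-48034853, mm10), the precursor of the peptide hormone apelin, had 130 and 162 normalised control footprints and 0 and 0.812 with DMDA-PatA. That is 289 control reads against 1 read. With each group's reads divided by the sum of its size factors, the ratio was 417. Its exact 95% binomial counting interval ran from 74.3 to 16529. This ratio differs from the fold inhibition used elsewhere, which divides mean normalised values. Cdc42se2, a small effector of the GTPase Cdc42, had 571 and 336 control footprints and 2.53 and 4.06 with DMDA-PatA. Its log2 fold change was -7.08 ± 0.61 (adjusted p 1.53e-29), or -2.77 relative to the median of all transcripts. Dynll2, a dynein light chain, went from 502 and 485 to 2.53 and 5.68, a log2 fold change of -6.92 ± 0.60 (adjusted p 3.6e-29), or -2.60 relative to that median. Asb7, which could not be matched to the annotation, and Enho, which encodes the peptide adropin, had no DMDA-PatA read in either library. Their control footprints were 29.5 and 39.9 for Asb7 and 36.5 and 29.9 for Enho. Against a floor of 3 reads per library, Asb7 was at least 16.0-fold lower and Enho at least 15.4-fold lower, so their place in this order is not established.

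Among members that moved the same way in both same-numbered pairs, the weakest responses were in Prorsd1, Prr3, Jtb, Triap1 and Dusp3. Triap1, a small protein gene with a role in mitochondrial lipid transfer and cell survival, had 136 and 167 control footprints and 44.8 and 69.8 with DMDA-PatA. It fell by 1.41 ± 0.44 on the log2 scale (adjusted p 0.00129), which lay 2.91 above the median of all transcripts. Prorsd1 had 34.2 and 33.5 control footprints and 17.7 and 21.1 with DMDA-PatA, which did not pass the test (adjusted p 0.102). The other member that did not pass was the incomplete Elp5, named after its values were seen, whose pairs moved in opposite directions and whose mean was above control. It had 68.4 and 33.5 control footprints and 53.7 and 80.4 with DMDA-PatA (adjusted p 0.373), and the groups overlapped.

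**Figure D2:**
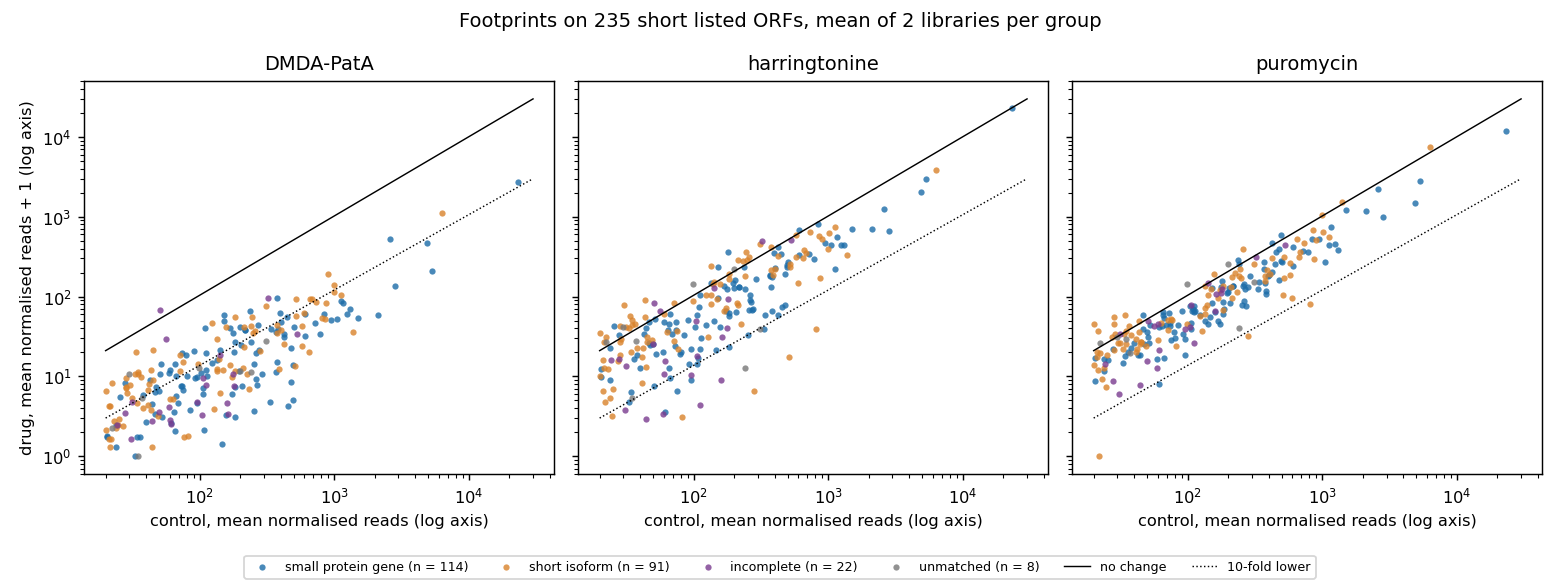
Mean normalised footprints of each member with the drug (plus 1) against control, both on log axes, for 3 drugs; points are coloured by how the ORF matches the annotation, and lines mark no change and 10-fold lower. With DMDA-PatA 234 of 235 members lie below their control mean, with harringtonine 195 and with puromycin 209. Of 11163 ORFs of 300 nt or more, which are not drawn, 11162, 11058 and 11057 do.

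Harringtonine lowered 128 of 235 and raised 4, where 92.8% of all transcripts tested fell and 0.512% rose. The median inhibition was 2.00 (1.66 and 2.51 by pair), against 8.19 for ORFs of 300 nt or more, and 117 members (49.8%) were inhibited under 2-fold against 4.84% of the longer ORFs. Small protein genes had a median inhibition of 2.24 and short isoforms of 1.70. Of 114 small protein genes 76 fell, as did 34 of 91 short isoforms and 15 of 22 incomplete members. TMM gave 10 lower and 186 higher, beside 30.2% and 26.5% of all transcripts. The number lowered was 79 without control replicate 1.

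Sec61b, a subunit of the channel that moves proteins into the endoplasmic reticulum, fell most with harringtonine. It had 239 and 321 control footprints and 9.13 and 2.10 with the drug, a log2 fold change of -5.73 ± 0.58 (adjusted p 1.72e-21), or -2.76 relative to the median of all transcripts. Anapc16, Abcf1, Ube2g1 and Brcc3 followed with -5.24, -5.00, -4.99 and -4.74, and all of these are short isoforms or incomplete. Ube2g1, a ubiquitin-conjugating enzyme, went from 480 and 538 to 22.3 and 10.5. The 4 members that rose were Synj2bp, Cep41, Dph3 and Eapp. Dph3, needed for the diphthamide modification of elongation factor 2, had 197 and 163 control footprints and 469 and 245 with harringtonine (log2 fold change 0.99 ± 0.42, adjusted p 0.0207). Synj2bp is a short isoform from the gene of an outer mitochondrial membrane protein and shares exons with another listed coding transcript. It had 27.1 and 33.5 control footprints and 82.2 and 71.4 with harringtonine (1.33 ± 0.46, adjusted p 0.00478). The number that rose was 0 without control replicate 2, 2 without harringtonine replicate 1 and 17 without harringtonine replicate 2.

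Puromycin lowered 104 members and raised 1, where 90.1% of all transcripts tested fell and 0.344% rose. The median inhibition was 1.77 (1.87 and 1.76 by pair) against 5.93 for ORFs of 300 nt or more. TMM gave 2 lower and 200 higher, beside 25.1% and 24.1% of all transcripts. The number lowered was 44 without control replicate 1, 56 without control replicate 2, 68 without puromycin replicate 1 and 48 without puromycin replicate 2. Taf3 is a short isoform from the gene of a subunit of the transcription factor TFIID. It had 17.7 and 26.3 control footprints and none with puromycin, so it was at least 4.43-fold lower against a floor of 3 reads per library. Pfdn4 is a short isoform from the gene of a subunit of the prefoldin chaperone. It fell from 925 and 701 to 78.6 and 80.8, a log2 fold change of -3.35 ± 0.47 (adjusted p 5.21e-12). Gng5, Sec61b and Gcc2 fell by 3.23, 3.16 and 2.66 on the log2 scale. Srpk1, a short isoform of 105 nt from the gene of a kinase of splicing factors, was the only member that rose. It went from 22.4 and 18.1 to 66.2 and 22.4 (1.06 ± 0.52, adjusted p 0.0444). The call was lost without either control library, without puromycin replicate 1, with the replicate block, with DESeq2 and with limma. The next largest increases, in Zfp113, Rint1, Ythdf2 and Bcl7b, were 0.93, 0.73, 0.70 and 0.68 on the log2 scale, none of which passed the test. Rbm39 had 1586 and 1193 control footprints and 1491 and 1567 with puromycin, a difference that did not pass the test (adjusted p 0.753), while it fell with DMDA-PatA and with harringtonine by 5.33 and 2.08.

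The drugs were also compared with each other, at the doses given above and, for puromycin, after a longer time, so doses and times differ. These comparisons and those with control use the same libraries. Fewer footprints were found with DMDA-PatA than with harringtonine on 195 members and more on 1, where 52.7% of all transcripts had fewer and 0.448% more. TMM gave 120 fewer and 12 more, beside 17.9% and 15.8% of all transcripts. The 1 member with more was Sec61b, with 19.6 and 20.3 against 9.13 and 2.10 (log2 difference 1.92 ± 0.61, adjusted p 0.00451), and the count was 0 without harringtonine replicate 2 and 2 without harringtonine replicate 1. DMDA-PatA left fewer footprints than puromycin on 210 members and more on none, where 67.3% of all transcripts had fewer and 0.44% more, and TMM gave 106 fewer and 16 more, beside 19.2% and 18.0%. Harringtonine left fewer than puromycin on 31 members and more on 6, where 9.9% had fewer and 1.19% more, and TMM gave 36 fewer and 56 more, beside 12.8% and 13.3%. Without harringtonine replicate 1, 76 members had fewer with harringtonine, and without puromycin replicate 1 and 2 the counts were 15 and 14. The 6 with more were Sptssa, Synj2bp, Gng10, Gchfr, Wfdc2 and Gtf2a2, between 1.30 and 1.63 on the log2 scale, named after their values were seen. That count was 0 without either control library or without puromycin replicate 2, 1 without puromycin replicate 1, 11 without either DMDA-PatA library and 25 without harringtonine replicate 2. Anapc16, a subunit of the anaphase-promoting complex, was among those with fewer, with a log2 difference of -3.47 ± 0.73 (adjusted p 0.000211).

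Members were then grouped by function in lists that held 89 members and left 146 in none. Over all transcripts tested 99.3% fell under DMDA-PatA, 92.8% under harringtonine and 90.1% under puromycin. Each list's counts are to be read against these shares, which are not limited to transcripts past the control floor. In the list of ubiquitin-like modifiers and proteolysis all 9 members fell under DMDA-PatA, 7 under harringtonine and 6 under puromycin. Anapc11, the catalytic RING subunit of the anaphase-promoting complex, had 2233 and 2021 control footprints and 49.2 and 65.7 with DMDA-PatA. It also fell with harringtonine (922 and 466) and puromycin (1141 and 1188). Nedd8, the ubiquitin-like protein that activates cullin ligases, fell by 4.58, 1.40 and 1.13 on the log2 scale. Cops9, a subunit of the COP9 signalosome, fell with DMDA-PatA by 2.06. It had 417 and 208 control footprints and 630 and 277 with harringtonine, which did not pass the test.

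All 4 members of the cytoskeleton list fell under DMDA-PatA, 2 under harringtonine and 3 under puromycin, beside 99.3%, 92.8% and 90.1% of all transcripts. Dynll1, a dynein light chain, fell with each drug, by 4.29, 0.85 and 1.31 on the log2 scale, and Brk1, a subunit of the WAVE complex that nucleates actin branches, fell with DMDA-PatA by 2.70. The chromatin and kinetochore list had 5 members, of which 5, 3 and 4 fell. Cenpx, a protein of the inner kinetochore, fell by 3.45, 0.88 and 1.09, and Cenpw had -2.48, -0.38 and -0.56, of which only the first passed. Swi5, a recombination factor whose ORF could not be matched to the annotation, went from 212 and 269 control footprints to 15.2 and 8.40 with harringtonine. In the RNA and transcription list 7, 4 and 5 of 7 fell. Nop10, a core protein of the particles that pseudouridylate RNA, fell by 4.40, 1.49 and 1.42, and Lsm8, of the ring on U6 RNA, by 3.38, 2.35 and 1.57.

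The mitochondrial list had 13 members, of which 13 fell under DMDA-PatA, 8 under harringtonine and 6 under puromycin, beside 99.3%, 92.8% and 90.1% of all transcripts. Chchd7 had 277 and 234 control footprints and 1.26 and 4.06 with DMDA-PatA, a log2 fold change of -6.60 ± 0.61 (adjusted p 9.8e-26). Coa3 and Pet100, both needed to assemble cytochrome oxidase, fell with DMDA-PatA by 3.13 and 3.33. Pet100 also fell with harringtonine, by 2.55, while Coa3 had 701 and 754 control footprints and 801 and 477 with harringtonine (adjusted p 0.664). In the endoplasmic reticulum and secretory membrane list 11, 7 and 8 of 11 fell. Ost4, a subunit of the oligosaccharyltransferase with an ORF of 111 nt, had 477 and 375 control footprints, 24.6 and 35.7 under DMDA-PatA, 563 and 283 under harringtonine and 596 and 349 under puromycin. Only the DMDA-PatA libraries of Ost4 did not overlap the controls, with a log2 fold change of -3.82 ± 0.48 (adjusted p 6.05e-15). Serp1, which stabilises membrane proteins at the translocon, fell by 5.24 with DMDA-PatA and by 1.00 with harringtonine.

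The metal and ligand binding list had 9 members, and 9 fell under DMDA-PatA and 5 each under harringtonine and puromycin, beside 99.3%, 92.8% and 90.1% of all transcripts. Mt2, a metallothionein like Mt1, had 1948 and 3256 control footprints and 427 and 619 with DMDA-PatA, a log2 fold change of -2.32 ± 0.45. All 8 G protein gamma subunits, the small partners of G protein beta subunits, fell under DMDA-PatA, 6 under harringtonine and 7 under puromycin. Their median log2 fold change with DMDA-PatA was -4.84, beside -3.62 over all members and -4.32 over all transcripts. Gng2 and Gng3 fell with DMDA-PatA by 4.76 and 5.27, and Gng10, which shares exons with another listed coding transcript, by 1.64. Of 10 small integral membrane (Smim) genes 10, 7 and 3 fell, with Smim14 and Smim8 at -5.14 and -5.09 for DMDA-PatA. The 13 uncharacterized members fell with DMDA-PatA in 13 cases, with harringtonine in 4 and with puromycin in 3. They include several transcripts of the gene 1500011B03Rik, so they are not 13 separate genes. Gm21987, which shares exons with another listed transcript, had 706 and 505 control footprints and 37.2 and 82.8 with DMDA-PatA. Gm20604 and Gm45799 share exons with other listed coding transcripts too.

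Inhibition was next read against ORF length. With puromycin the median inhibition was 1.56 for members under 150 nt, and 1.23, 1.83 and 1.83 in the bins that start at 150, 200 and 250 nt. The bins that start at 300, 600, 1000 and 2000 nt had medians of 2.66, 4.16, 6.10 and 9.48. With harringtonine the same bins ran from 2.07, 1.37, 1.96 and 2.15 over the members to 3.51, 5.88, 8.18 and 12.4 over longer ORFs. With DMDA-PatA the members' bins lay between 11.0 and 13.2 and the longer ones between 13.9 and 25.3. The members' bins mix complete ORFs with incomplete and unmatched ones, such as the incomplete Abcf1 (128 nt) and Brcc3 (149 nt). Incomplete members had median inhibitions of 18.6, 3.30 and 1.71 with DMDA-PatA, harringtonine and puromycin. Small protein genes had 13.0, 2.24 and 1.88. The part of this mix in the bins was not tested. Among the members alone, the Spearman correlation of log2 inhibition with ORF length was 0.0517 under DMDA-PatA, 0.201 under harringtonine and 0.17 under puromycin. These are descriptions across 235 transcripts that share libraries and controls, and no p is given.

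**Figure D3:**
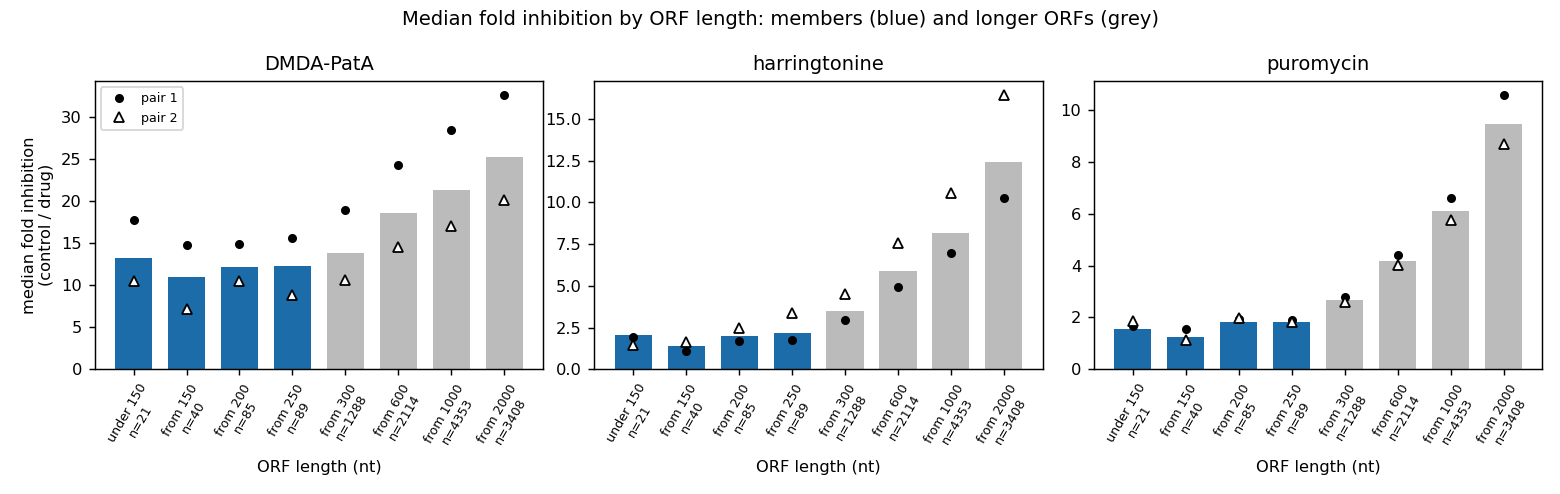
Median fold inhibition (control over drug) by ORF length in nt for each drug, on axes that start at 0; blue bars are members, grey bars longer coding ORFs, and the points are the same-numbered pairs. From 2000 nt the medians reach 25.3 under DMDA-PatA, 12.4 under harringtonine and 9.48 under puromycin.

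The median response to DMDA-PatA differed between bins of 5′ UTR length. The 34 members with a 5′ UTR under 50 nt had a median inhibition of 5.88, the 82 from 50 to under 150 nt of 10.6, the 66 from 150 to under 300 nt of 15.3 and the 53 with 300 nt or more of 25.4. In ORFs of 300 nt or more the same bins gave 12.4, 17.3, 26.1 and 28.8. The Spearman correlation with log2 5′ UTR length was 0.471 over members and 0.35 over the longer ORFs, across transcripts and with no p. With harringtonine the members' bins gave 1.15, 1.75, 2.09 and 3.78, and with puromycin 1.68, 1.87, 1.79 and 1.70. Of the 5 weakest DMDA-PatA responses named above, Triap1 has a 5′ UTR of 46 nt, Dusp3 of 42 nt and Prorsd1 of 31 nt, while Jtb has 346 nt and Prr3 195 nt. Elp5, whose mean was above control, has 437 nt. Among strong decreases, Apln has 348 nt, Cdc42se2 529 nt, Dynll2 298 nt and Chchd7 404 nt.

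**Figure D4:**
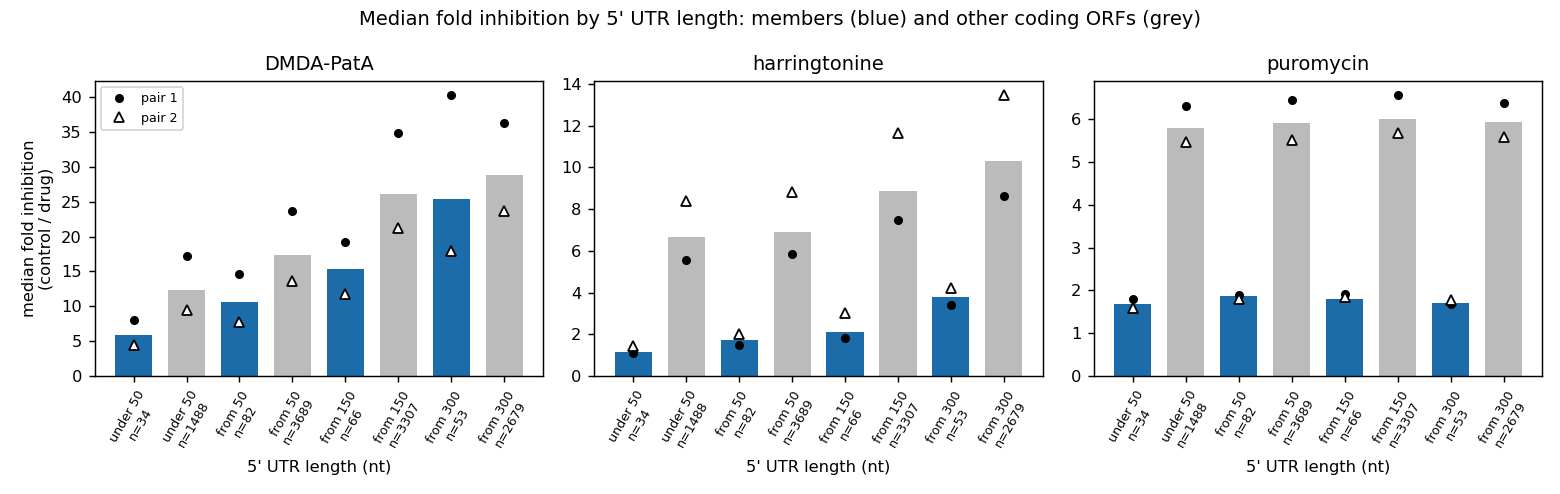
Median fold inhibition by 5′ UTR length in nt, with members in blue, ORFs of 300 nt or more in grey and the same-numbered pairs as points. With DMDA-PatA the members' medians go from 5.88 under 50 nt to 25.4 from 300 nt, and with puromycin they stay between 1.68 and 1.87.

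Reads on the 5′ UTRs of the members were tested as well, in the 152 members that passed the filter on low reads there. A 5′ UTR with few control reads could pass only through the libraries where it was high, so counts are also given for the 98 members, of 4164 5′ UTRs, with at least 10 reads in both control libraries, a limit chosen after seeing the data. With DMDA-PatA 33 rose and 42 fell, where 14.7% of all 6585 tested 5′ UTRs rose and 29.0% fell. TMM, with factors set on the ORF reads, gave 146 higher and 0 lower, beside 94.3% and 0.106% of all 5′ UTRs. Those factors set the typical ORF to no change. The TMM counts here, also those of the other drugs, are therefore for 5′ UTRs relative to ORFs. Of the 98 members 17 rose and 39 fell, beside 6.8% and 43.1% of the 4164, and their median log2 fold change was -0.64, beside -1.002 over the 4164. The number that fell among the 152 was 22 without control replicate 1 and 24 without DMDA-PatA replicate 1, and the number that rose was 17 without control replicate 2 and 18 without DMDA-PatA replicate 2. The 5′ UTR of Tmsb4x had 25.9 and 19.9 normalised control reads and 1105 and 1610 with DMDA-PatA, a log2 fold change of 5.89 ± 0.53 (adjusted p 1.61e-24), while its ORF fell. The 5′ UTRs of Cxcl12, Atp6v0e, Crip1 and S100a6 rose by 5.04, 4.57, 4.44 and 3.85, of which Cxcl12 and Atp6v0e had at most 2 reads in a control library. Among those that fell were the incomplete Aspscr1 and the unmatched Adgrl2, by 4.16 and 3.64, and the incomplete Abcf1 fell from 294 and 186 to 10.7 and 31.7. Of 79 small protein genes tested here 21 rose and 17 fell with DMDA-PatA, and of 56 short isoforms 12 rose and 14 fell. Of 13 incomplete members 0 rose and 7 fell, and of 4 unmatched members 0 rose and 4 fell. With harringtonine 66 5′ UTRs rose and 6 fell, where 35.3% of all rose and 5.25% fell, and TMM gave 146 higher and 0 lower, beside 96.9% and 0.152%. Of the 98 members 41 rose and 6 fell, beside 26.3% and 8.09%. The number that rose among the 152 was 36 without control replicate 2 and 34 without harringtonine replicate 1. Tmem258, a subunit of the oligosaccharyltransferase, had 4.72 and 3.63 normalised control reads there and 82.2 and 37.1 with harringtonine, so it passed the filter only through drug libraries. With puromycin only the 5′ UTR of Pfdn4 passed, from 269 and 194 to 53.8 and 48.5 (log2 fold change -2.18 ± 0.49, adjusted p 0.00304), where 0.471% of all fell and 0.607% rose, and TMM gave 142 higher and 0 lower, beside 88.2% and 0.106%. Of the 98 members 1 fell and 0 rose, beside 0.744% and 0.528%. That call was lost without control replicate 1 or either puromycin library.

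Over the members together, 5′ UTRs held 7.44% and 7.60% of reads in the control libraries and 48.0% and 48.3% with DMDA-PatA. Without Tmsb4x the shares with DMDA-PatA were 50.7% and 52.7%. On ORFs of 300 nt or more the shares were 3.85% and 4.11% in control and 36.7% and 37.1% with DMDA-PatA. In the transcriptome libraries 60.9% and 62.0% of the members' reads lay in the 3′ UTR, against 6.47% and 6.12% of the control footprints.

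**Figure D5:**
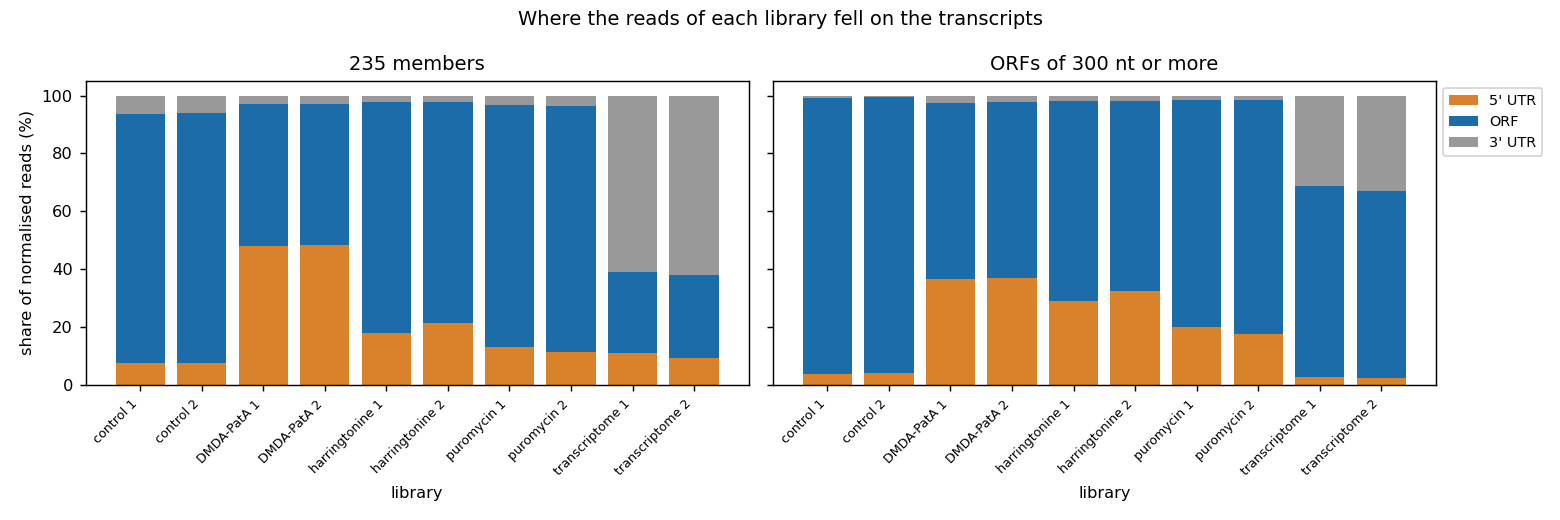
Share of normalised reads (%) on the 5′ UTR, ORF and 3′ UTR in each library, for the members and for ORFs of 300 nt or more. The 5′ UTR share of the members is 48.0% and 48.3% in the DMDA-PatA libraries against 7.44% and 7.60% in control.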

How the data were processed

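The deposited tables list, for each transcript, the ORF position and the reads on the 5′ UTR, ORF and 3′ UTR as signal values, which the authors had aligned to mm10 and divided by DESeq2 size factors, set on a spike-in RNA for the ribosome profiling libraries and between replicates alone for the transcriptome libraries. The submitters' processing notes name Picard 1.38. Dividing the deposited values by what 1 read is worth in each library gave whole numbers (100% of values, tolerance 0.01), so reads were recovered. A count test had been planned, and it was run on those recovered reads: the quasi-likelihood test of edgeR 4.0.16 (R 4.3.3) over the 8 ribosome profiling libraries with the authors' size factors, for transcripts with at least 10 reads in 2 libraries, with Benjamini-Hochberg adjustment over all transcripts tested and a threshold of 0.05. All 235 members passed that filter for the ORF. The standard error is the size of the log2 fold change over the square root of F. The scripts were tested on simulated data for DMDA-PatA against control, with 50 transcripts at each true log2 change. The test called 3 at -1, 44 at -2, 50 at -3 and 10 at 1, and 3 of 12283 unchanged transcripts. Changes of 1 on the log2 scale were thus mostly missed there, so a member not called is not shown to be unchanged. Most simulated transcripts were unchanged, unlike in these data, so these shares need not hold here. Other fits used DESeq2 1.42.0, TMM, no filter on low reads, exchanged size factors, the replicate number as a block, and each library left out. Limma 3.58.1 on log2(scaled reads + 1) and the counts without members that share exons or are not small protein genes were chosen after seeing the data. ORFs were placed on GENCODE M21 transcripts.

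Members and lists were chosen with earlier results of these data known. Members named are those of the function lists, with up to 4 of the most control reads as examples, the 5 with the highest control mean, the 5 largest decreases and the 5 smallest decreases or largest increases per drug among those that moved the same way in both same-numbered pairs, and those nearest the thresholds. Others are said to be named after their values were seen, and the genes named for 5′ UTR reads, also chosen after their values were seen, were among the 5 largest changes per drug and direction there. The drugs share the same 2 control libraries. Reads carry no molecular identifiers, so intervals and floors cover counting error only. Protein sequences were not used here.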

Additional observations from a re-analysis of the deposited data

How the results depend on the processing

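With TMM in place of the spike-in size factors, members lowered and raised were 23 and 95 under DMDA-PatA, 10 and 186 under harringtonine and 2 and 200 under puromycin. For 5′ UTRs, with the same factors from ORF reads, they were 0 and 146, 0 and 146, and 0 and 142. Members with fewer and more footprints were 120 and 12 for DMDA-PatA against harringtonine and 106 and 16 for DMDA-PatA against puromycin, and 56 had more with harringtonine than with puromycin. With each library scaled to equal coding reads, the median inhibition reversed to 0.603, 0.296 and 0.321. When DMDA-PatA and harringtonine libraries swapped size factors, 1 member rose with DMDA-PatA and 3 with puromycin, 12 5′ UTRs fell with harringtonine, and 2 fell and 2 rose with puromycin. Footprints were then more with DMDA-PatA on 2 members against harringtonine and on 1 against puromycin, and fewer with harringtonine than puromycin on 85 and more on 15. DESeq2 and limma each gave 2 members raised by harringtonine and 0 by puromycin, limma gave 2 5′ UTRs raised by puromycin, and without a filter on low reads 0 members rose with puromycin. The cause of these moves was not tested.

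The replicate numbers were not used as a block in the tests, and same-numbered pairs served only to describe values and choose named members: the labels do not say that a number marks a shared batch, and deviations of same-numbered libraries correlated between -0.0171 and 0.104 over 8459 transcripts. With the replicate block, 232, 118 and 87 members fell with DMDA-PatA, harringtonine and puromycin, and 0 rose with puromycin.

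Leaving out each library in turn gave median inhibitions of 9.89 to 15.7, 1.62 to 2.73 and 1.70 to 1.83. Members lowered ranged from 220 to 234, 79 to 162 and 44 to 135, and members raised from 0 to 0, 0 to 17 and 0 to 3. Members with a 5′ UTR lowered ranged from 22 to 44, 4 to 7 and 0 to 2, and raised from 17 to 33, 34 to 70 and 0 to 2. Between drugs, fewer footprints were found on 165 to 207, 185 to 220 and 14 to 76 members, and more on 0 to 2, 0 to 0 and 0 to 25. Of 2388 values of single named genes with DESeq2, limma, the replicate block, exchanged size factors or a library left out, 2174 kept direction and call, 154 lost the call, 60 gained it and 0 reversed. These do not include TMM or the fit without a filter. Depth limits members with few DMDA-PatA reads.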
